A study of Sus scrofa with 8 samples.

Results

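The loci of 10 genes of the KLF family were examined for acetylation of histone H3 at lysine 27 (H3K27ac), a mark of active promoters and enhancers, in pig stem cells and pig fibroblasts. The members were KLF2, KLF3, KLF4, KLF5, KLF6, KLF7, KLF9, KLF10, KLF12 and KLF13, taken by name, which is 10 of the 16298 protein-coding genes measured. Each was read over the gene in the pig RefSeq table of Sscrofa11.1 and 10 kb on either side, and KLF6 also over 300 kb on either side. The stem cells were pre-gastrulation epiblast stem cells (pgEpiSC), which the labels place at the embryonic epiblast of day 10. The other cells were porcine embryonic fibroblasts (pEF) from fetuses of day 30. No treatment or genetic change is named for either cell type. Each type had 2 H3K27ac chromatin immunoprecipitation (ChIP) libraries, numbered 1 and 4 for pgEpiSC and 1 and 2 for pEF, each with its own input library. The labels do not say whether the libraries of a type came from separate lines, cultures or animals, so the p-values measure only the spread between these libraries. H3K27ac was measured, not RNA or protein.

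KLF proteins are transcription factors that bind GC-rich and CACCC-type DNA through 3 C2H2 zinc fingers at their carboxyl end, and they differ in the regions before the fingers, which recruit either coactivators or corepressors. KLF2, KLF4 and KLF5 are known from mouse embryonic stem cells, where they take part in the network of naive pluripotency, and KLF4 is one of the reprogramming factors. KLF6 and KLF10 are early response genes, KLF9 and KLF13 bind the corepressor SIN3A, and KLF3 and KLF12 bind the corepressor CtBP.

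The values rest on islands, the stretches in which the authors found more ChIP reads than background. The 4 lists held 57790 to 74208 islands, with 29.7 and 38.2 M ChIP reads inside islands in pgEpiSC 1 and 4, and 42.4 and 46.4 M in pEF 1 and 2. The islands of pgEpiSC were wider in sum (409 and 414 Mb, against 273 and 275 Mb) and weaker, with a median ChIP-to-input ratio of 1.80 and 1.67 against 3.47 and 3.46. The part of this library-wide gap in the values below was not tested. Most markers went with the labels: 8 of 9 epiblast genes had more acetylated length in pgEpiSC (31.9% of all genes did), while NANOG did not pass (limma, adjusted p 0.130). Of 8 fibroblast genes, 5 had more in pEF (10.9% of all genes did). PRRX1, THY1 and PDGFRB did not pass, and the mean of PDGFRB was higher in pgEpiSC (31.3 kb, against 27.7 kb in pEF). In pgEpiSC and pEF respectively, POU5F1 (the pluripotency factor OCT4) had 25.6 ± 0.57 and 3.9 ± 0.42 kb, and SOX2 (its partner) had 21.0 and 2.9 ± 0.14 kb (mean ± SD, n = 2). COL1A1 (a collagen I chain) had 8.8 ± 1.26 and 38.1 kb, and COL3A1 (collagen III) had 52.2 ± 2.69 kb in pEF with no pgEpiSC island. Counting only islands at 2-fold or more, the log2 fold change of SOX2 was 3.46 and did not pass (limma, adjusted p 0.0860). With islands at a false discovery rate (FDR) under 1e-10 it did not pass either (limma, adjusted p 0.0638). Of 5 endothelial genes, 3 were higher in pgEpiSC (summed length 70.3 to 78.9 kb, against 15.6 to 23.4 kb in pEF). By reads 1 of them was higher in pgEpiSC, and counting only islands at 2-fold or more 0 were higher in pgEpiSC and 1 in pEF. By length in all islands no blood, keratinocyte, muscle or neural marker passed in either direction. The part of other cells in the KLF values was not tested.

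H3K27ac was present at all 10 KLF loci in both cell types, and at each of them an island of every library lay within 2 kb of at least one end of the gene. The acetylated length, which is the part of a window covered by islands in kb, was higher in pgEpiSC at KLF5 and higher in pEF at KLF2, KLF9, KLF12 and KLF13 (limma on log2 of kb + 1, adjusted p under 0.05 over all genes). KLF3, KLF4, KLF6, KLF7 and KLF10 did not pass. So 1 of 10 members was called higher in pgEpiSC where 31.9% of all genes were, and 4 of 10 higher in pEF where 10.9% of all genes were. The median log2 fold change, pgEpiSC minus pEF, was -0.34 over the members and 0.46 over all genes. With 2 libraries a type, all 5 calls were lost when any 1 of the 4 libraries was left out (adjusted p 0.0574 to 0.164), when 3 or 4 members had an unadjusted p under 0.05 in each such limma fit.

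The reads behind the islands gave a more uniform order. ChIP reads in a window, per M ChIP reads in the islands of the library (RPM), were higher in both pEF libraries than in both pgEpiSC libraries at 9 members, and higher in both pgEpiSC libraries at KLF5. Over all genes the libraries separated in these ways at 36.5% and 39.4%. In the limma fit on log2 of RPM + 1, added after the data were seen, 7 members were higher in pEF (20.1% of all genes) and 0 in pgEpiSC (23.5% of all genes; 0 also at an unadjusted p under 0.05). The members that did not pass by reads were KLF3 (log2 fold change -0.83, adjusted p 0.0521), KLF5 (1.37, 0.0990) and KLF7 (-0.67, 0.134). The ChIP-to-input ratio inside the islands of the windows ran from 1.66 to 3.62 in pgEpiSC and from 4.30 to 20.1 in pEF. Medians over all islands were 1.80 and 1.67 in pgEpiSC and 3.47 and 3.46 in pEF. These measures differ: the window ratio sums reads over islands, so long islands weigh more, while a median counts each island once.

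**Figure D1:**
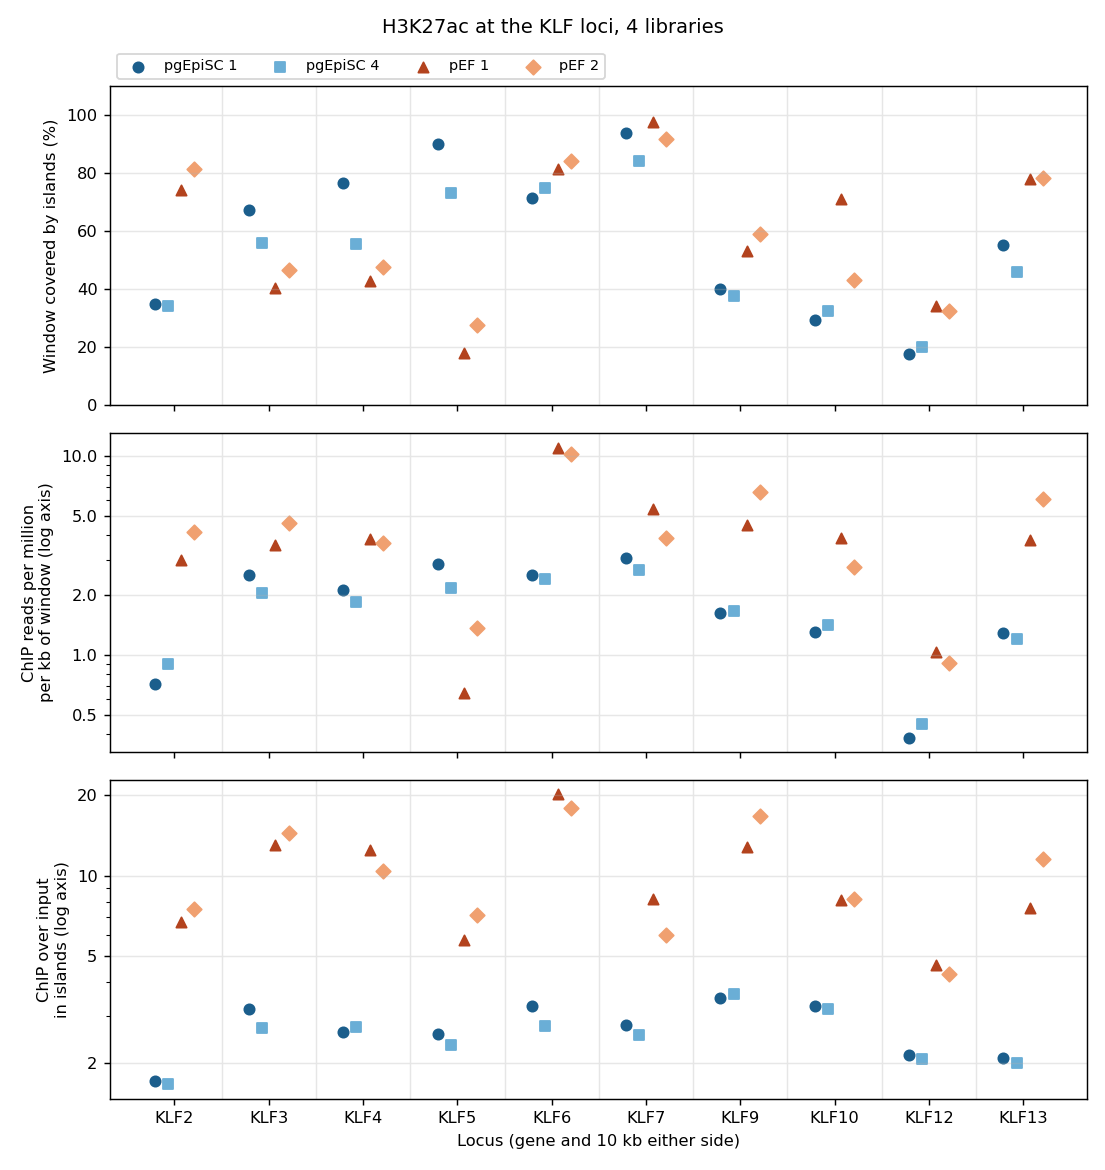
Acetylation at the 10 KLF loci (gene and 10 kb either side), 1 point per library, pgEpiSC 1 and 4 and pEF 1 and 2. The panels show the percent of the window covered by islands, the RPM per kb of window (log axis) and the ChIP-to-input ratio in the islands (log axis); KLF5 is the member with both pgEpiSC libraries above both pEF libraries in the middle panel.

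Reads were also compared over regions in which all 4 libraries had an island, with edgeR. The windows of the 10 members held 21 such regions, of which 11 were higher in pEF (23.4% of the 20498 regions tested), 2 were higher in pgEpiSC (22.7%) and 8 missed the threshold. Their median log2 fold change was -1.07, against -0.01 over all regions. The 11 regions lay at 8 members (KLF2, KLF3, KLF6, KLF7, KLF9, KLF10, KLF12 and KLF13), and the 2 higher in pgEpiSC lay at KLF5 and KLF12. KLF4 had 1 region, which did not pass.

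**Figure D2:**
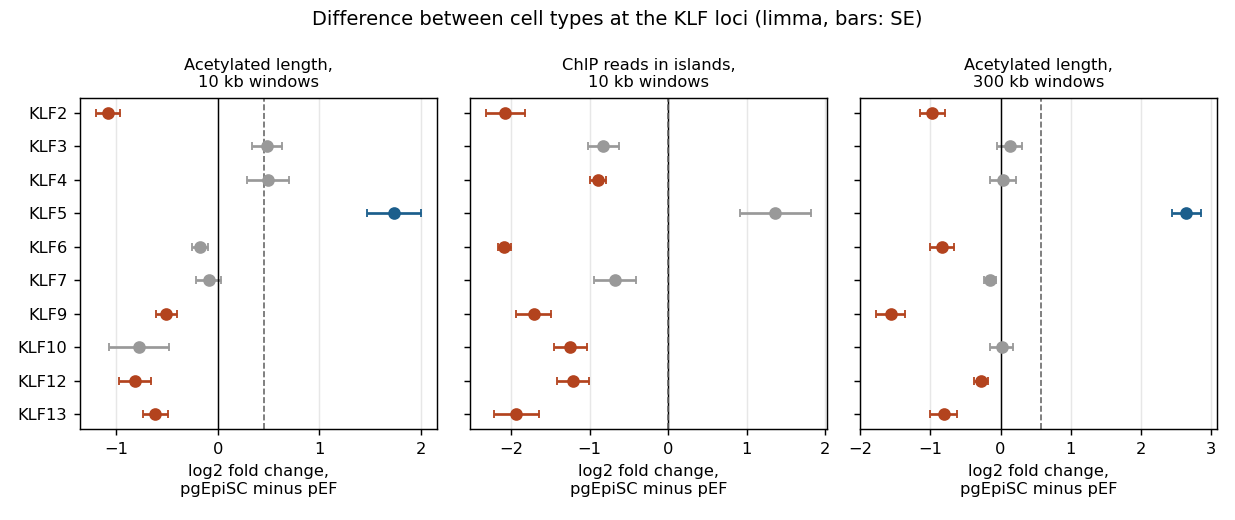
Log2 fold changes (pgEpiSC minus pEF) with standard errors from limma for the 10 members, for length in 10 kb windows, ChIP reads in 10 kb windows and length in 300 kb windows. Coloured points passed an adjusted p of 0.05, grey points did not, and the dashed line is the median of all genes; KLF5 stands to the right in all 3 panels.

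Of the members tied to naive pluripotency in the mouse, KLF5 was the one whose acetylated length passed as higher in pgEpiSC. Its reads did not pass, and its ChIP-to-input ratio was 2.56 and 2.33 in pgEpiSC and 5.72 and 7.12 in pEF. Islands covered 33.0 and 26.8 kb of its window in pgEpiSC 1 and 4, and 6.6 and 10.2 kb in pEF 1 and 2. The lowest pgEpiSC library was thus well above the highest pEF library, and the log2 fold change was 1.74 ± 0.27 (SE; limma, adjusted p 0.0225). By reads the window held 105 and 79.2 RPM in pgEpiSC, and 23.8 and 50.3 RPM in pEF. In pgEpiSC a single island ran over the whole gene, from -2.21 to 24.4 kb of its lower-coordinate end in library 1 (26.6 kb long, ChIP-to-input ratio 2.85), and was 24.8 kb long with a ratio of 2.39 in library 4. In pEF the island at that end was short and steep, with 4.8 and 8.0 kb and ratios of 7.22 and 9.07, and the other end of the gene had no island. The region over the gene (chromosome 11, 45367801 to 45394400) held 155 and 130 normalised reads per M ChIP reads in regions (CPM) in pgEpiSC and 34.3 and 78.8 in pEF. Its log2 fold change was 1.33, which did not pass (edgeR, adjusted p 0.0511), and was again not passed without pgEpiSC 1 (0.190) or pgEpiSC 4 (0.139). It passed without pEF 1 (1.81-fold, adjusted p 0.0191) and without pEF 2 (4.14-fold, 0.00123), with 2.51-fold in all libraries. A second region, from -12.8 to -2.41 kb of that end (45357201 to 45367600) was higher in pgEpiSC, with 24.7 and 12.8 CPM against 4.07 and 5.33 (log2 fold change 1.99, edgeR, adjusted p 0.0193). That call was lost without pgEpiSC 1 (adjusted p 0.0970).

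The neighbour on the lower side of KLF5 is PIBF1, which ends 7.3 kb before it, so part of that second region lies within PIBF1. PIBF1 and its 10 kb flanks had 84.3 and 79.3 kb of islands in pgEpiSC and 20.5 and 19.3 kb in pEF (log2 fold change 1.99, limma, adjusted p 0.00317). Counting only islands at 2-fold or more, the value was -1.04 and did not pass (adjusted p 0.339). PIBF1 encodes a protein of the centrosome region. It was the one other protein-coding gene in the 10 kb window of any member.

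KLF2 had the opposite pattern, with more H3K27ac in pEF. Islands covered 7.8 and 7.6 kb in pgEpiSC and 16.6 and 18.2 kb in pEF, and RPM was 15.9 and 20.1 against 66.7 and 92.6. The types did not overlap in either measure. The log2 fold change of length was -1.08 ± 0.12 (SE; limma, adjusted p 0.0128). With flanks of 5 kb it was -0.51 and did not pass (adjusted p 0.113), and counting only islands at 2-fold or more, of which pgEpiSC had none in the window, it was -4.20. Over 300 kb on either side it was -0.97 (limma, adjusted p 4.2e-04), and -1.01 to -0.94 with a library left out. Other genes in windows of this width were listed only for KLF6, so wide values describe a neighbourhood and not the member alone. In pgEpiSC there was 1 island at KLF2, with ratios of 1.71 and 1.66, close to the library medians of 1.80 and 1.67. In pEF the lowest island started at -7.73 kb of the lower-coordinate end, and the ratios reached 7.5 and 7.48, more than the pEF medians of 3.47 and 3.46. The region (chromosome 2, 61263001 to 61282200) held 26.3 and 34.3 CPM in pgEpiSC and 108 and 155 in pEF (4.34-fold, log2 fold change -2.12, edgeR, adjusted p 0.00446), and it passed with each library left out (adjusted p 9.4e-04 to 0.0439).

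KLF4 differed in where the islands lay more than in how much was covered. Islands covered 18.96 and 13.8 kb of its window in pgEpiSC, and 10.6 and 11.8 kb in pEF. The log2 fold change of 0.50 did not pass (limma, adjusted p 0.150). In pgEpiSC the longest island lay below the lower-coordinate end, from -17.8 to 0.98 kb of that end in library 1 and from -11.6 to -2.02 kb in library 4, with ratios of 2.66 and 3.10. A second pgEpiSC island of 4.4 and 5.8 kb sat over the gene, with ratios of 3.59 and 2.24. In pEF the main island lay over the gene itself, with 10.6 and 9.8 kb and ratios of 12.5 and 11.7. Within 10 kb below the gene pEF 1 had no other island, and pEF 2 had 1 island of 2.00 kb at a ratio of 2.00. The merged region, which reaches to -18.2 kb, held 2 islands of pEF 1 and 3 of pEF 2, so each pEF library had 1 more island farther below. By reads the window was higher in pEF (94.5 and 90.6 RPM, against 52.7 and 45.9; log2 fold change -0.9, limma, adjusted p 0.0139). The merged region, which takes in the pgEpiSC island below the gene (chromosome 1, 248586601 to 248614400), gave a log2 fold change of -0.53, which did not pass (edgeR, adjusted p 0.0544). The direction of the KLF4 length difference turned to -0.14 when the libraries were centred on their median genes, and to -0.21 with flanks of 5 kb.

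**Figure D3:**
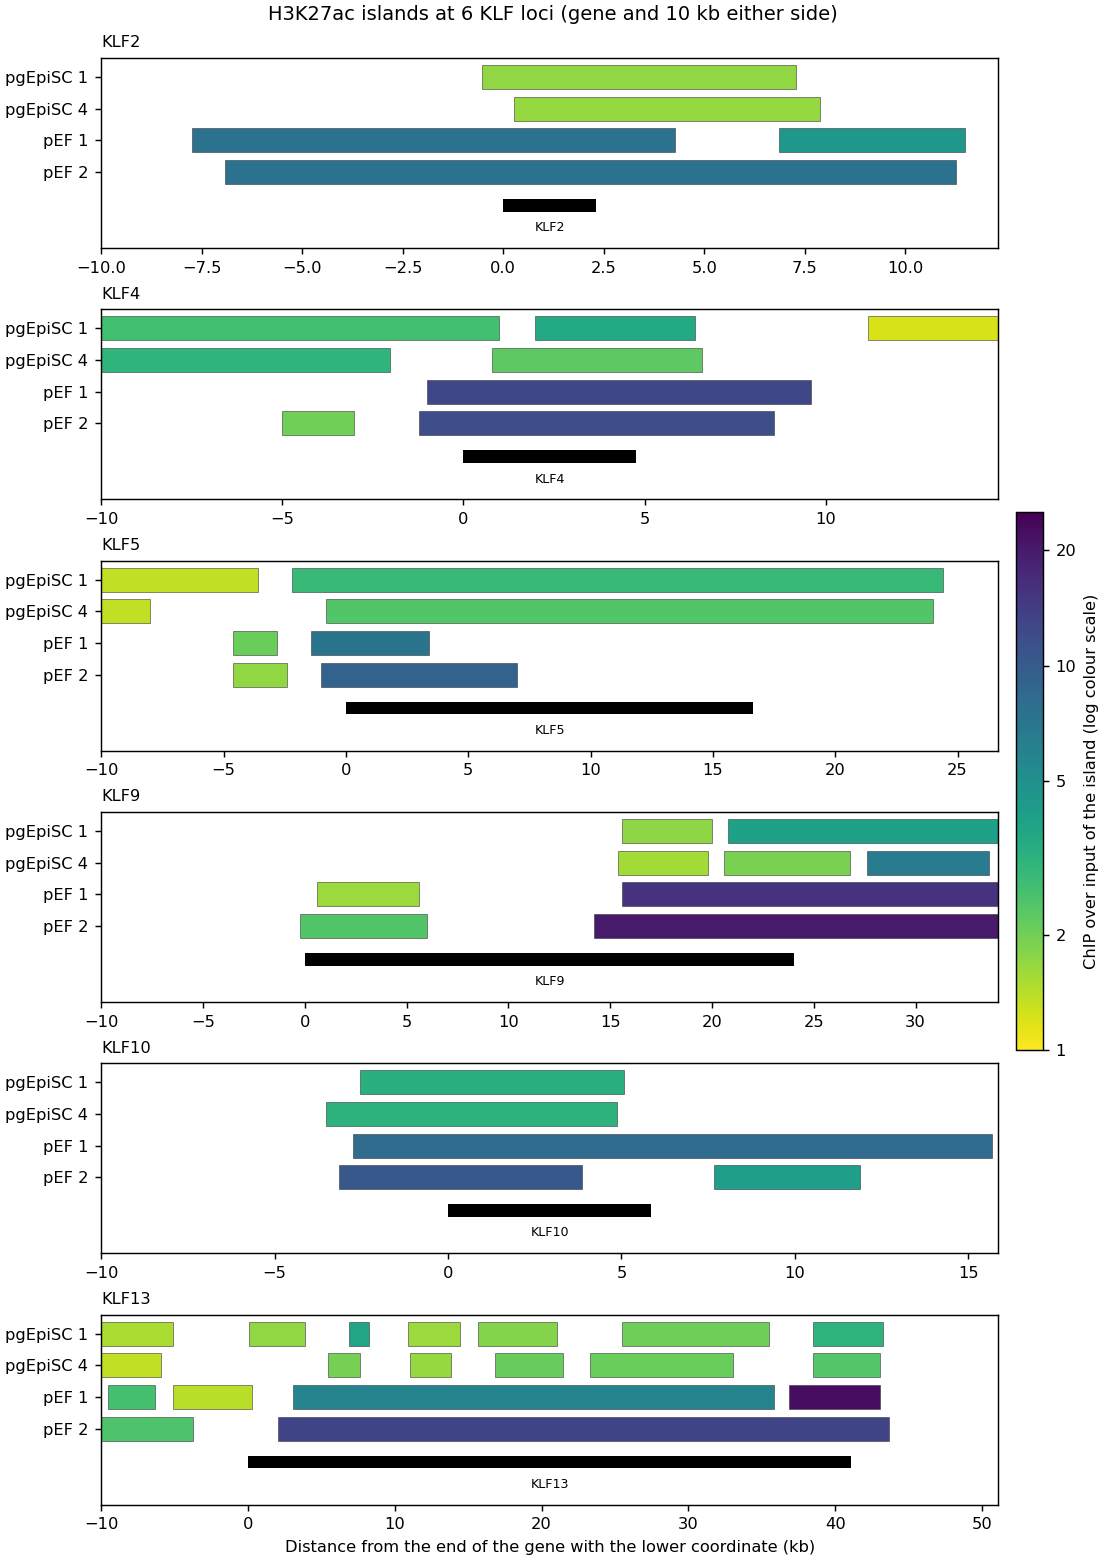
Islands of each library at KLF2, KLF4, KLF5, KLF9, KLF10 and KLF13, by distance in kb from the lower-coordinate end of the gene, with colour giving the ChIP-to-input ratio. At KLF5 the pgEpiSC islands run over the whole gene and the pEF islands stop within it; at KLF4 the longest pgEpiSC islands lie below the gene and the main pEF islands over it.

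KLF6, a broadly expressed early response gene also described as a tumour suppressor, had the highest H3K27ac of the 10 members in pEF per kb of window. Most of its 10 kb window was covered in both types, at 71.5% and 74.97% of the window in pgEpiSC and 81.5% and 84.2% in pEF. The difference in length (21.0, 22.0, 24.0 and 24.8 kb in the order pgEpiSC 1, pgEpiSC 4, pEF 1, pEF 2) did not pass (log2 fold change -0.17, limma, adjusted p 0.175). It passed when the libraries were centred (-0.80, adjusted p 0.0172) and with 2-fold islands (-0.46, 0.0493). The reads separated the types: 74.1 and 71.1 RPM in pgEpiSC, and 323 and 301 RPM in pEF. That is a log2 fold change of -2.09 (limma, adjusted p 0.00272). Per kb of window KLF6 stood 4th and 8th among the 16298 genes in pEF 1 and 2, and 643rd and 729th in pgEpiSC 1 and 4. The ChIP-to-input ratio was 3.27 and 2.73 in pgEpiSC and 20.1 and 17.9 in pEF. The shared region over the gene (chromosome 10, 66462401 to 66509000) held 160 and 147 CPM in pgEpiSC and 679 and 723 in pEF (4.58-fold, edgeR, adjusted p 0.0017), and passed with each library left out (adjusted p 3.5e-04 to 0.0302).

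Around KLF6, over 300 kb on either side, pEF had a broad acetylated domain. No other protein-coding gene with a symbol lies in that stretch in the RefSeq table. Genes of long non-coding RNAs do, between -207 and 240 kb of the lower-coordinate end of KLF6. Among these are LOC110255728 (-207 to -198 kb), LOC100624137 (-55.2 to -51.3 kb) and LOC102157904 (49.3 to 89.1 kb). The part of these genes in the acetylation was not tested. Islands covered 256 and 156 kb of its 609 kb in pgEpiSC, and 335 and 381 kb in pEF. The pgEpiSC libraries stood farther from each other here than the pEF libraries did, and both lay below pEF. The log2 fold change was -0.84 (limma, adjusted p 0.00107), where 57.7% of all genes were called higher in pgEpiSC at this width and 14.4% higher in pEF. It passed with each library left out, at -1.19 without pgEpiSC 1 and -0.48 without pgEpiSC 4. Reads were 530 and 329 RPM in pgEpiSC and 1744 and 2270 RPM in pEF, with ChIP-to-input ratios of 2.12 and 1.95 against 8.22 and 9.10. Below the gene islands covered 103 and 58.6 kb in pgEpiSC and 180 and 217 kb in pEF, while above it they covered 144 and 87.8 kb against 145 and 155 kb. The pEF libraries were thus apart from pgEpiSC on the lower side in length, and on the higher side pgEpiSC 1 came close to pEF 1.

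The distal part of the KLF6 domain held long shared regions with many more reads in pEF. The whole stretch, with the region over the gene included, had 13 regions with an island in all 4 libraries. Of these, 10 were higher in pEF, 1 was higher in pgEpiSC and 2 missed the threshold (edgeR). Their median log2 fold change was -2.62. Over all 20498 regions 23.4% were higher in pEF and 22.7% in pgEpiSC, with a median of -0.01. The regions given here were picked after their values were seen. The farthest below the gene, from -321 to -227 kb of its lower-coordinate end, held 901 and 903 ChIP reads in pgEpiSC and 11778 and 19462 in pEF (log2 fold change -3.67, edgeR, adjusted p 0.00177). A region from -226 to -193 kb held 425 and 269 reads against 3284 and 10139 (-3.79, adjusted p 0.00909), so the pEF libraries also differed from each other there. The region from -88.44 to -44.45 kb held 1316 and 1010 reads against 10567 and 14939 (-2.99, adjusted p 0.00282). Above the gene, the region from 126 to 148 kb held 246 and 305 reads against 3527 and 3869 (-3.33, adjusted p 0.0013). Other regions called higher in pEF had smaller differences, such as -1.60 from 72.4 to 102 kb (adjusted p 0.0121).

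A short stretch near KLF6 went the other way in length, and in reads only past the edge of the island over the gene. Within 50 kb above the gene, islands covered 29.6 and 23.8 kb in pgEpiSC and 8.0 and 5.4 kb in pEF. Reads in these 50 kb were 58.0 and 52.7 RPM in pgEpiSC and 80.7 and 65.3 RPM in pEF. The ChIP-to-input ratios were 2.01 and 2.07 against 16.1 and 17.9. In pEF these reads came nearly all from the edge of the island over the gene, which ended 5.77 and 5.37 kb past the gene. Past that edge pEF 1 had an island of 90 ChIP reads here and pEF 2 had none. The pgEpiSC islands went on, such as from 30.16 to 37.35 kb past the lower-coordinate end (514 and 491 reads, with no pEF island). The 1 region higher in pgEpiSC lay from 59.96 to 71.95 kb past the lower-coordinate end, with 1072 and 1071 ChIP reads against 107 and 446 (log2 fold change 2.41, edgeR, adjusted p 0.0351). Across the whole 300 kb stretch, 5 regions (29.0 kb in sum) held islands of both pgEpiSC libraries and no pEF library. Another 3 regions (29.0 kb in sum) held islands of both pEF libraries and no pgEpiSC library. Over all regions these classes made up 21.9% and 17.7%. The stretch also held 13 regions shared by all 4 libraries and 10 with other combinations. All 5 regions of the first class lay between -42.84 and 54.35 kb of the lower-coordinate end of KLF6.

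**Figure D4:**
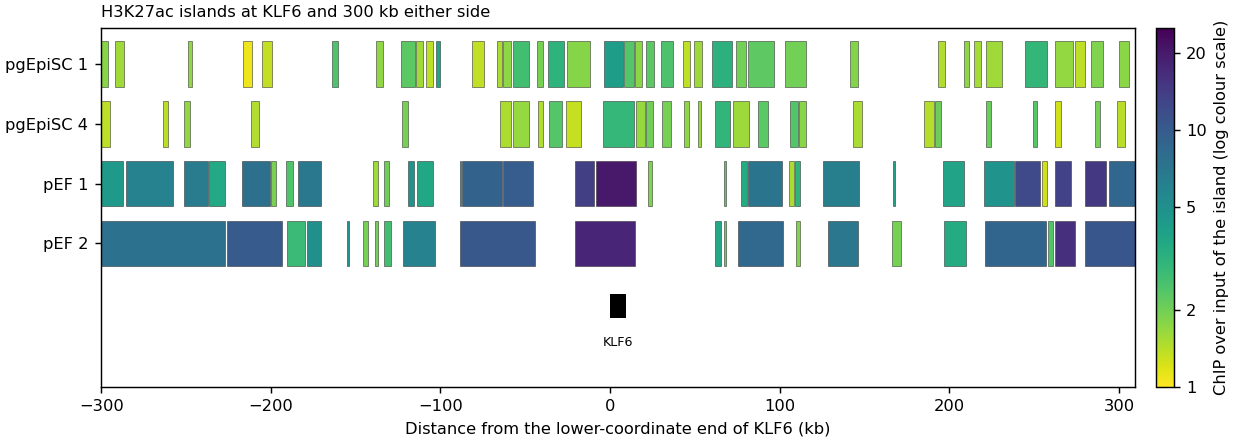
Islands of each library around KLF6, by distance in kb from the lower-coordinate end of the gene, over 300 kb on either side, with colour giving the ChIP-to-input ratio. The pEF islands are long and strong on the lower side (180 and 217 kb covered, against 103 and 58.6 kb in pgEpiSC).

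KLF9 and KLF13, close relatives that recruit SIN3A, and KLF10, which is induced by TGF-beta and also binds SIN3A, had more H3K27ac in pEF by reads. KLF9, known as a target of glucocorticoid and thyroid hormone, had 17.7 and 16.6 kb of islands in pgEpiSC and 23.5 and 26.1 kb in pEF (log2 fold change -0.51 ± 0.1 SE, limma, adjusted p 0.0365). That call was lost counting only islands at 2-fold or more (-1.20, adjusted p 0.190) and in a fit limited to genes averaging 1 kb or more (adjusted p 0.0578), and with 20 kb flanks the value was -1.04. Its reads were 71.8 and 73.3 RPM against 199 and 291 RPM. The signal lay at the higher-coordinate end: the shared region from 14.2 to 41.8 kb past the lower end (chromosome 1, 223737801 to 223765400) held 120 and 125 CPM in pgEpiSC and 437 and 502 in pEF (3.84-fold, edgeR, adjusted p 0.00213), and passed with each library left out (adjusted p 4.6e-04 to 0.0329). At the lower end islands were found in both pEF libraries only, with 5.0 and 6.2 kb and ratios of 1.62 and 2.40. This was the one region of a member other than KLF12 with islands of both pEF libraries and neither pgEpiSC library, a class that made up 17.7% of the 101305 regions. Over 300 kb on either side KLF9 had 39.8 and 38.4 kb in pgEpiSC and 114 and 122 kb in pEF (log2 fold change -1.57, limma, adjusted p 2.7e-05, and at most 0.00434 with a library left out).

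KLF13, which is known as an activator of the CCL5 promoter in T cells, had 33.9 and 28.1 kb of islands in pgEpiSC and 47.6 and 47.9 kb in pEF (log2 fold change -0.61 ± 0.12 SE, limma, adjusted p 0.0381). That call was lost with islands at an FDR under 1e-10 (adjusted p 0.0578) and with 20 kb flanks (0.115), and the value was -1.31 counting only islands at 2-fold or more. In pgEpiSC these were 7 and 6 short islands, the longest 10 and 9.8 kb. In pEF they merged into longer ones, the longest 32.8 and 41.6 kb. Reads were 78.5 and 73.8 RPM in pgEpiSC and 231 and 373 RPM in pEF, so the pEF libraries stood farther from each other than the pgEpiSC libraries did. A pEF 1 island of 6.2 kb at the higher-coordinate end had a ratio of 22.4, the highest of any island at the members. The shared region (chromosome 1, 143484201 to 143542800) gave a log2 fold change of -1.88 (edgeR, adjusted p 0.00713), which did not pass without pgEpiSC 1 (adjusted p 0.0615) or pgEpiSC 4 (0.0640). Over 300 kb on either side the length difference of KLF13 was -0.81 (limma, adjusted p 0.00228), and passed with each library left out.

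KLF10 had 7.6 and 8.4 kb of islands in pgEpiSC and 18.4 and 11.2 kb in pEF. The types did not overlap, but the pEF libraries were far apart and the log2 fold change of -0.77 ± 0.3 (SE) did not pass (limma, adjusted p 0.129). By reads KLF10 was higher in pEF (101 and 71.5 RPM, against 34.0 and 36.4; log2 fold change -1.25, limma, adjusted p 0.0272). In every library an island began between -3.53 and -2.53 kb of the lower-coordinate end and lay over the gene, and pEF had acetylation past the higher-coordinate end as well, as an extension of that island in pEF 1 and as a separate 4.2 kb island in pEF 2. Its region (chromosome 4, 34426601 to 34445800) was 2.39-fold higher in pEF (edgeR, adjusted p 0.0107), and that call was lost without pgEpiSC 1 (adjusted p 0.0835) or pgEpiSC 4 (0.0677). At 300 kb the lengths of KLF10 overlapped (154 and 145 kb, against 171 and 127 kb).

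KLF3 and KLF12, the CtBP-binding repressors, both had shared regions with more reads in pEF, and KLF12 had more length there too. KLF3 had 37.8 and 31.4 kb of islands in pgEpiSC and 22.6 and 26.2 kb in pEF, a log2 fold change of 0.48 that did not pass (limma, adjusted p 0.0852). Its reads went the other way, at 141 and 115 RPM in pgEpiSC and 201 and 256 RPM in pEF. The islands began at nearly the same place in all 4 libraries, between -3.98 and -2.38 kb of the lower-coordinate end, and reached 20.2 to 29.0 kb into the gene, with ratios of 4.15 and 2.69 in the main pgEpiSC islands and 13.1 and 14.4 in pEF. The region (chromosome 8, 30021001 to 30054000) was 1.81-fold higher in pEF (edgeR, adjusted p 0.0266), and this call was lost without pgEpiSC 1 (adjusted p 0.122) or pgEpiSC 4 (0.167). The length value of KLF3 turned to -0.15 when the libraries were centred.

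KLF12, the longest member with a window of 694 kb, had 124 and 139 kb of islands in pgEpiSC and 238 and 226 kb in pEF (log2 fold change -0.81 ± 0.16 SE, limma, adjusted p 0.0341; -1.97 with 2-fold islands, adjusted p 0.0270). These were 21 and 24 islands in pgEpiSC, of which 8 in each library had a ratio of at least 2, and 47 and 43 islands in pEF, of which 44 and 35 did. Over the window 20 regions held islands of both pEF libraries and neither pgEpiSC library, a class that made up 17.7% of all regions. Another 4 held islands of both pgEpiSC libraries and neither pEF library, a class that made up 21.9%. Those at the lower-coordinate end of the gene lay from -11.3 to 5.70 kb (946 and 847 reads) and from 6.5 to 29.1 kb (1294 and 1521 reads). Neither pEF library had an island at that end. A further 11 were shared by all libraries and 13 had other combinations of libraries. Of the 11 regions shared by all libraries, 4 were higher in pEF, 1 was higher in pgEpiSC and 6 missed the threshold (edgeR). Over all shared regions 23.4% were higher in pEF and 22.7% in pgEpiSC. The regions named next were picked after their values were seen. The strongest lay 468 to 483 kb past the lower-coordinate end (chromosome 11, 46449201 to 46464400), with 67.2 and 79.0 CPM in pgEpiSC and 236 and 208 in pEF (3.05-fold, adjusted p 0.00368). A region 223 to 238 kb past that end had the largest fold change, 11.7 and 14.96 CPM against 87.7 and 70.7 (5.95-fold, adjusted p 0.00238). These regions passed with each library left out (adjusted p at most 0.0427). Near the higher-coordinate end, neighbouring regions went in opposite directions. The one from 646 to 660 kb was higher in pgEpiSC (55.0 and 60.8 CPM, against 29.0 and 31.2; log2 fold change 0.94, adjusted p 0.0188), and the one from 668 to 676 kb, over the gene end, was higher in pEF (6.74 and 9.02, against 26.9 and 26.3; -1.75, adjusted p 0.00973). Both calls were lost without either pgEpiSC library (adjusted p 0.0514 to 0.128).

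KLF7, which is related to KLF6 and known from neuron development, was covered nearly end to end in all 4 libraries. Islands took up 93.9% and 84.2% of its 118 kb window in pgEpiSC and 97.7% and 91.7% in pEF, and it was the one member at which the types overlapped in length (log2 fold change -0.09, limma, adjusted p 0.605). Reads were 361 and 316 RPM in pgEpiSC and 638 and 456 RPM in pEF, which did not pass in the fit on all genes (adjusted p 0.134). The merged region of 186 kb (chromosome 15, 110203401 to 110389000) held 747 and 665 CPM against 1649 and 1308 (2.10-fold, edgeR, adjusted p 0.0135), a call lost without pgEpiSC 1 (adjusted p 0.103) or pgEpiSC 4 (0.133). The longest island of the window was 146 kb in pEF 1, and 53.6 kb in pEF 2, 78.6 kb in pgEpiSC 1 and 42.2 kb in pgEpiSC 4. In pgEpiSC 1 and 4 and in pEF 2 the ratios were highest in the islands toward the higher-coordinate end (3.19, 3.19 and 9.30), while pEF 1 had 1 island over the whole gene at 8.18.

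KLF5 and KLF12 are neighbours on chromosome 11, with 594 kb and no protein-coding gene with a symbol between them. This interval was chosen after its values were seen, and its lengths are given as a description. Islands covered 190 and 147 kb of it in pgEpiSC, and 15.8 and 25.6 kb in pEF. Reads were 409 and 309 RPM against 35.3 and 37.0 RPM. In the first 100 kb above KLF5 the coverage was 66.1 and 60.5 kb in pgEpiSC, and neither pEF library had an island. The islands of pgEpiSC in the interval were weak, with ChIP-to-input ratios of 1.84 and 1.66 that lie at the medians of their libraries. The pEF ratios there were 3.30 and 2.32, below the pEF medians of 3.47 and 3.46. Of 27 and 31 islands in pgEpiSC 4 and 6 had a ratio of at least 2, as did 5 in each pEF library of 7 and 8. The interval held 16 regions (140 kb in sum) with islands of both pgEpiSC libraries and no pEF library, and 1 region (3.6 kb) with the reverse. Over all regions these classes made up 21.9% and 17.7%. A further 11 regions of the interval had other combinations of libraries. Beside the region over KLF5 itself, 3 of its regions were shared by all 4 libraries. The one 177 to 201 kb above KLF5 held 2058 and 2172 ChIP reads in pgEpiSC and 388 and 634 in pEF (log2 fold change 2.49, edgeR, adjusted p 0.00335), and the next, 203 to 216 kb above, held 394 and 259 against 138 and 137 (1.71, adjusted p 0.0249). The third, at 534 to 539 kb, did not pass (-0.38, adjusted p 0.351).

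The 300 kb on either side of KLF5 take in part of this interval and also PIBF1, from -294 to -7.3 kb of the lower-coordinate end of KLF5. PIBF1 with 10 kb flanks held 84.3 and 79.3 kb of islands in pgEpiSC and 20.5 and 19.3 kb in pEF. Its part in the KLF5 values at this width was not tested. Over 300 kb on either side KLF5 had 231 and 196 kb of islands in pgEpiSC and 28.2 and 38.6 kb in pEF. The log2 fold change was 2.65 (limma, adjusted p 5.3e-07), and 2.43 to 2.87 with a library left out. Counting only islands at 2-fold or more, the log2 fold change was 1.1 (adjusted p 0.0232). At that width 1 member was higher in pgEpiSC (KLF5), 5 were higher in pEF (KLF2, KLF6, KLF9, KLF12 and KLF13) and 4 missed the threshold, beside 57.7% and 14.4% of all genes. Counting only islands at 2-fold or more, 9 were higher in pEF, among them KLF2 (-1.77), KLF6 (-2.15), KLF9 (-2.10), KLF12 (-1.47) and KLF13 (-1.46). Of all 16298 genes, 6113 were then called higher in pEF and 1264 higher in pgEpiSC. The KLF12 difference at that width was small (-0.29, adjusted p 0.0223) and did not pass when pgEpiSC 1, pgEpiSC 4 or pEF 1 was left out (adjusted p up to 0.116). The wide windows of KLF5 and KLF12 overlap, so they are not independent.

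**Figure D5:**
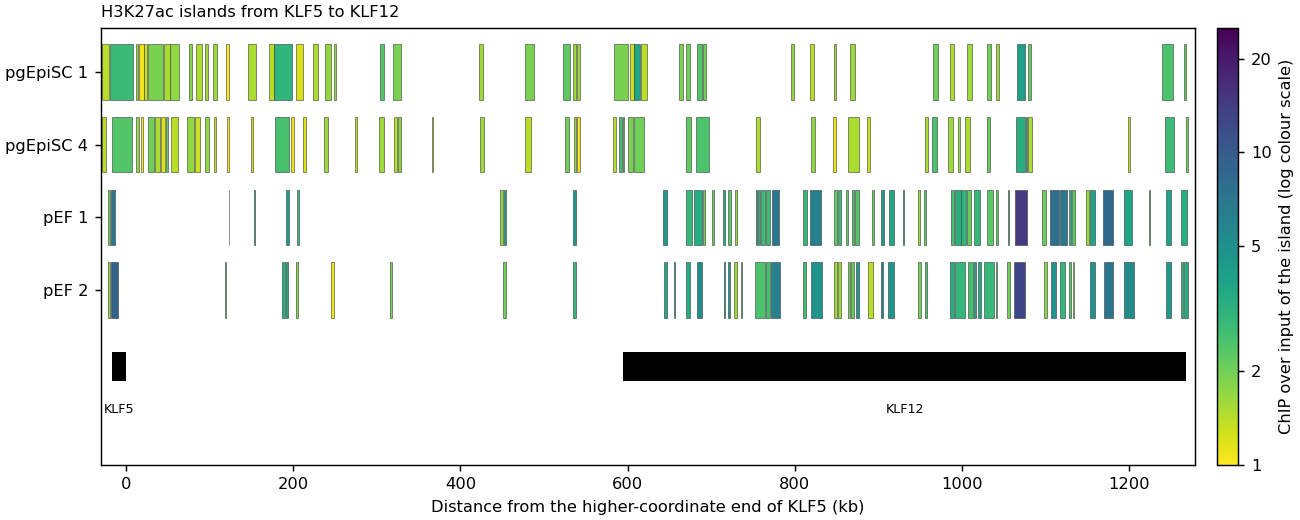
Islands of each library from KLF5 to KLF12, by distance in kb, with colour giving the ChIP-to-input ratio. Between the genes pgEpiSC has 27 and 31 islands, 4 and 6 of them at least 2-fold, and pEF has 7 and 8, 5 in each at least 2-fold. Inside KLF12 pEF has the more numerous and stronger islands, except at its lower-coordinate end, where only pgEpiSC has islands.

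The order of the members by RPM per kb of window differed between the types. These are levels, and reads outside islands are not counted. In pgEpiSC the mean was highest at KLF7 (2.87 ± 0.27), followed by KLF5 (2.51 ± 0.49), KLF6 (2.47 ± 0.07), KLF3 (2.29 ± 0.33) and KLF4 (1.99 ± 0.19; SD, n = 2). The libraries of each of these overlapped with those of the next, so no neighbouring pair among the first 5 is separated, though both KLF7 libraries were above both of KLF6, KLF3 and KLF4. KLF9 (1.65 ± 0.02), KLF10 (1.36 ± 0.07) and KLF13 (1.25 ± 0.05) followed, then KLF2 (0.81 ± 0.13) and KLF12 (0.42 ± 0.04), each with no overlap with the member above it. The median gene stood at 0.58 and 0.6 in pgEpiSC, so KLF2 was above it and KLF12 below it.

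In pEF KLF6 (10.6 ± 0.53) stood apart at the top of that scale. KLF9 (5.56 ± 1.47), KLF13 (4.95 ± 1.64), KLF7 (4.64 ± 1.09), KLF3 (4.08 ± 0.7), KLF4 (3.74 ± 0.11), KLF2 (3.57 ± 0.82) and KLF10 (3.33 ± 0.79) came next, and each overlapped with its neighbour in that order. KLF5 (1.01 ± 0.51) and KLF12 (0.97 ± 0.09) were lowest and overlapped with each other. The median gene stood at 0.56 and 0.51. By mean KLF5 thus ranked 2 of 10 in pgEpiSC and 9 of 10 in pEF, and KLF2 ranked 9 and 7. Apart from KLF2 in pgEpiSC, these ranks are not separated from a neighbouring one, since the libraries overlapped.

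Of the 7 other KLF genes measured (KLF1, KLF8, KLF11, KLF14, KLF15, KLF16 and KLF17), 0 passed in either direction by length or by reads in limma. At an unadjusted p under 0.05, 3 of them were higher in pgEpiSC by length and 0 by reads, and counting only islands at 2-fold or more 1 was called higher in pEF. Their summed length was 35.0 to 52.1 kb in pgEpiSC and 28.8 to 31.4 kb in pEF. The longest was at KLF16 (20.6 and 25.8 kb, against 15.4 and 16.4 kb). The SP genes share the zinc finger type of the KLF proteins. Of 9 measured, 4 were higher in pgEpiSC, 1 was higher in pEF, and the other 4 missed the threshold. Over all genes the shares were 31.9% and 10.9%. The median log2 fold change was 1.12, against 0.46 over all genes. By reads the counts were 4 and 2, and with 2-fold islands 2 and 0. SP4 had 37.6 and 32.4 kb in pgEpiSC and 2.6 and 2.40 kb in pEF (3.36, adjusted p 0.00349). SP8, a factor of limb and brain development, had 17.8 and 15.4 kb against 1.0 and 2.00 kb (2.84, adjusted p 0.0119), and SP6 had 14.4 and 14.0 kb against 4.0 and 3.0 kb (1.77, adjusted p 0.0137). SP9 had 6.2 and 2.8 kb in pEF and was without an island in pgEpiSC (-2.39, adjusted p 0.0232). SP4 passed with each library left out, while SP6, SP8 and SP9 were lost in 3, 2 and 2 of those 4 fits (adjusted p up to 0.0820, 0.0851 and 0.150). Counting only islands at 2-fold or more, SP4 (2.45) and SP8 (2.84) passed, SP6 was -0.19, and SP9 had none in any library.

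Genes whose products act with or upstream of KLF proteins were read from lists, by length in limma. Of 10 corepressors and coactivators, 5 were higher in pgEpiSC and 0 in pEF, where all genes stood at 31.9% and 10.9% (median log2 fold change 1.08, against 0.46). Counting only islands at 2-fold or more, 0 of the 10 were called in either direction (0 and 1 at an unadjusted p under 0.05). The 5 included the acetyltransferase KAT2B with 42.1 and 35.0 kb against 6.4 and 5.6 kb (2.49, adjusted p 0.00527). By reads 2 of the 10 passed, both higher in pgEpiSC. Of 6 genes of the ERK5 pathway, which induces KLF2 and KLF4 in endothelium, 2 were higher in pgEpiSC and 1 in pEF (median 0.49; by reads 2 and 2; with 2-fold islands 0 and 2). The kinase MAP2K5 had 85.0 and 86.0 kb in pgEpiSC and 11.6 and 12 kb in pEF (2.76, adjusted p 0.0029). The transcription factor MEF2C had 16.2 and 20 kb in pgEpiSC and 95.5 and 87.9 kb in pEF (-2.29, adjusted p 0.00546). KAT2B and MAP2K5 passed with each library left out, but not counting only islands at 2-fold or more (-0.11 and 0.70), and MEF2C was lost in 1 of the 4 fits (adjusted p 0.0517).

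Of 6 measured genes of the LIF and naive pluripotency network, 3 were higher in pgEpiSC and 1 in pEF, beside 31.9% and 10.9% of all genes (median 0.79; by reads 1 and 1; with 2-fold islands 0 and 2). ESRRB had 98.8 and 95.5 kb in pgEpiSC and 2.40 kb in each pEF library (4.85, adjusted p 0.0029), whereas TBX3 was without islands in pgEpiSC and had 19.6 and 18 kb in pEF (-4.31, adjusted p 0.0029). Both are targets or partners of the naive network in the mouse, and here they were at opposite ends. Of 6 TGF-beta pathway genes, 2 were higher in each type (median 0.15; by reads 2 and 3; with 2-fold islands 1 and 2), and the receptor TGFBR2 had 45.6 and 39.4 kb in pgEpiSC and 101 and 95.4 kb in pEF (-1.19, adjusted p 0.0106). Of 5 ubiquitin ligases that act on KLF proteins, 1 was higher in each type (median -0.52; by reads 0 and 1; with 2-fold islands 0 and 2). The call in pEF was WWP1, a ligase of KLF2 and KLF5, named after its values were seen, with 30.2 and 30.4 kb against 51.7 and 42.3 kb (-0.61, adjusted p 0.0428). Counting only islands at 2-fold or more, ESRRB was 1.37 and did not pass (adjusted p 0.684), and TBX3 was -4.18 (0.00812). With each library left out ESRRB and TBX3 passed, TGFBR2 was lost in all 4 fits (adjusted p 0.0514 to 0.0688) and WWP1 in 3 of 4 (up to 0.190).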

How the data were processed

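H3K27ac ChIP-seq was deposited as 1 island list per ChIP library. The submitters' processing notes name SICER 1.1, BWA 0.7.15 and SAMtools 0.1.19. How duplicates were handled is not given in the sources used here. No list has a header, and each has 8 columns: the deposited count columns were read as ChIP and input reads per island, the deposited p-value columns as a p-value and its FDR, and the deposited fold column as the ratio of ChIP to input reads scaled by library. No FDR limit had been applied (largest value 1.0), and all islands were used. An island with few reads is missed in a shallow or weakly enriched library. Library totals outside islands were not used.

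The genome build is not named in the labels or lists. On 19 of 19 chromosomes the ends of genes in the RefSeq table (Sscrofa11.1) fell inside islands at a higher rate than positions shifted by 20 kb, so it was used. It gives no strand, so gene ends are named by coordinate. Positions printed are those of the islands, counted from 1. A read was shared over the island it lay in when an island crossed a window edge. No sequence was used here.

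Length was fitted with limma 3.58.1 (trend) on log2(kb + 1), which understates changes of low values, over 16298 genes, in R 4.3.3. Reads of 20498 regions, formed by joining islands that overlap by 1 bp and holding islands of all 4 libraries, were fitted with edgeR 4.0.16 (quasi-likelihood, TMM). Both used Benjamini-Hochberg adjustment, a threshold of 0.05 and 2 residual degrees of freedom. Both were tested on simulated data. Alternatives were other scaling, DESeq2 1.42.0, island filters, windows, a pseudocount of 0.2 kb and each library left out. Fits on RPM in each gene window were chosen after seeing the data.

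The members and lists were chosen with earlier results of these data known. All 10 members are reported, with up to 3 genes per direction of 2 lists (largest absolute log2 fold change among those called), protein-coding genes in the windows, and POU5F1, SOX2, COL1A1 and COL3A1. KLF18, LIFR and KRT14 had no matching entry.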

Additional observations from a re-analysis of the deposited data

How the results depend on the processing

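By length in 10 kb windows 1 member was higher in pgEpiSC and 4 in pEF. The counts were 1 and 7 after centring, 0 and 7 with ChIP reads in place of length, 0 and 9 with centred reads, and 0 and 0 with any 1 library left out. At 300 kb the count in pEF was 8 when centred and 9 if islands under 2-fold enrichment were dropped, against 5. Over all genes these counts were 5380 of 16296, 6113 of 16298 and 2346 of 16298. For shared regions the counts without a library ranged from 0 to 3 in pgEpiSC and from 5 to 12 in pEF, and DESeq2 gave 3 and 12. Centring, fitted on 15689 genes because those lacking any island were left out, changed the split of all genes from 5196 and 1773 of 16298 to 3583 and 3853. Dropping islands under 2-fold gave 1150 and 2692, and centred reads gave 4180 and 4303 of 15689. Total reads in place of TMM moved that of regions from 4649 and 4790 to 5689 and 3752. The member regions then gave 3 and 9, against 2 and 11. The KLF3 region and the KLF12 region from 397 kb were lost (edgeR, adjusted p 0.0573 and 0.0547). The region over KLF5 passed as higher in pgEpiSC (edgeR, adjusted p 0.0281), as it did in DESeq2 (adjusted p 0.00594). Centring, which subtracts the median gene of each library, moved the median log2 fold change of all genes from 0.46 to -0.12.

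Among the members, directions that turned belonged to values that had not passed in the main fits. Some turned values then passed as higher in pEF (limma). Among these were KLF4 by reads (adjusted p 0.0139) and KLF3 by centred reads (0.0298). At 300 kb with 2-fold islands KLF3 (0.0131), KLF4 (0.0160) and KLF10 (0.0391) also passed. Outside the members, PIBF1, KAT2B and SP6, called higher in pgEpiSC by length, turned to -1.04, -0.11 and -0.19 with 2-fold islands. In 10 kb windows KLF3 was -0.15 when centred, -0.83 by reads and -0.93 by centred reads, and KLF4 was -0.14 when centred, -0.21 with 5 kb flanks, -0.90 by reads and -1.01 by centred reads. At 300 kb, centred, with 2-fold islands and with an FDR under 1e-10, KLF3 was -0.48, -0.93 and -0.14, KLF4 was -0.57, -1.02 and -0.20, and KLF10 was -0.59, -0.83 and -0.32. With a library left out KLF3 ranged from -0.10 to 0.36, KLF4 from -0.12 to 0.20 and KLF10 from -0.19 to 0.23. Among the KLF12 regions, the one from 75.1 kb was 0.19 with total reads and 0.016 with at least 100 reads in every library. With a library left out, it ranged from -0.34 to 0.20, the one from 252 kb from -0.26 to 0.41, that from 267 kb from -0.62 to 0.60 and that from 389 kb from -0.31 to 0.43. The cause was not tested. Joining islands at an overlap of 200 bp gave the same regions, since islands lie on a 200 bp grid. No paired analysis was possible because the cell types share only replicate number 1.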
